A study of Mus musculus with 4 samples.

Results

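Cluster 4 of the authors' joint clustering held 51 of the 317 single thymic nuclei whose complete table rows were used, and all 51 carried the authors' label thyAD II. The other 89 thyAD II nuclei formed cluster 0. The remaining 177 nuclei carried other labels: 85 were thyAD I of cluster 1, 61 were thyAD I of cluster 3 and 31 were Immune. The members were taken by label and cluster number, and their chromatin fragments by cell barcode. The study concerns fat cells of the thymus, and all 317 nuclei came from 1 library. Thymi of 16 naive, wild-type female C57/BL6 mice aged 6 months, kept on standard chow, were pooled, fat cells were enriched by enzymatic digestion and flotation, and RNA and open chromatin were read from the same nuclei. The animals were not kept apart, so no value below has a replicate check and no p-value is given. The authors drew the clusters from both assays of these nuclei, with a median weight of 0.589 on chromatin in cluster 4, so each difference between clusters is a description.

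A transposase cuts DNA that is free of nucleosomes, so the number of fragments over a gene or its start measures how accessible that stretch is. Endothelial cells line blood and lymphatic vessels. The VEGF receptor Kdr, the junction proteins Cdh5 and Cldn5 and the adhesion protein Pecam1 are counted here as genes of endothelium in general (pan-endothelial). They do not tell blood from lymphatic vessels. Lymphatic endothelium depends in addition on the transcription factor Prox1 and the VEGF-C receptor Flt4. White fat cells express lipid droplet and adipokine genes under Pparg, and brown-like fat cells add Ucp1, which uncouples respiration to give heat. In the thymus, vessels deliver T cell precursors and let mature T cells leave, and fat cells increase in number with age.

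The 51 nuclei held 868105 fragments, between 6225 and 28036 per nucleus with a median of 17339. Cluster 0 held 1321508 fragments and the other labels together 2208289. The median enrichment of cuts at gene starts, as the authors deposited it, was 6.29 in cluster 4, 6.74 in cluster 0, 6.68 and 7.92 in thyAD I clusters 1 and 3, and 8.09 in Immune nuclei. The authors' doublet class was singlet for every nucleus. Of the 317 barcodes, 6 also occurred in the thymic RNA library and 1 in the epigonadal RNA library, and 3 of the former belonged to cluster 4. Of the 6, 0 were labelled nuclei of the thymic RNA library.

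The nuclei of cluster 4 differed among themselves in 1 respect that touches the results. A single nucleus placed 31.6% of its 25803 fragments on chromosome 4, where the second highest of the 51 nuclei placed 7.05% and the lowest 5.82%. The same nucleus placed 12.5% on chromosome 2, against 8.95% for the second highest. Its extra fragments were patchy along the chromosome. Between 25 and 30 Mb of chromosome 4 it gave 690 fragments, where the other 50 nuclei together gave 311, and between 90 and 95 Mb it gave 836 against 418. Between 40 and 45 Mb it gave 64 against 3220, a share 0.649 times that of the other nuclei. On chromosome 2 its fragments were concentrated at 135 to 140 Mb, with 769 against 1400.

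The fragments of that nucleus on chromosome 4 were also short. Of its 8161 chromosome 4 fragments, 85.1% (95% Clopper-Pearson interval 84.3 to 85.9) were under 150 bp, the length range that lies between nucleosomes. Of its 14422 fragments outside chromosomes 2 and 4, 45.7% were that short, and of the 54553 chromosome 4 fragments in the other 50 nuclei, 57.9%. The nucleus had 3329 RNA molecules and 1.38% mitochondrial RNA, against cluster medians of 3199 and 5.44%. The cause was not tested. A second nucleus of cluster 4, with 7840 fragments, placed 2.40% on chromosome 3 where the median nucleus placed 4.91%. Across all 317 nuclei, 13 had an autosome share more than 6 scaled median absolute deviations from the median, 2 in cluster 4, 0 in cluster 0, 6 in thyAD I and 5 in Immune. These are called uneven nuclei, and values that depend on them are given with and without them.

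**Figure D1:**
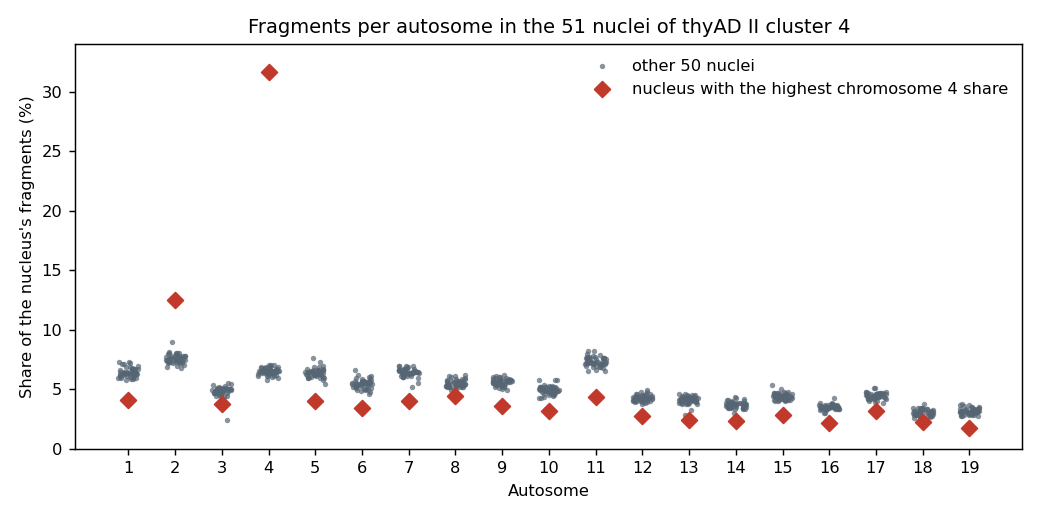
Share of each nucleus's fragments (percent, vertical axis) on each autosome (horizontal axis) for the 51 nuclei of cluster 4; grey points are 50 nuclei and red diamonds the 1 nucleus with the highest chromosome 4 share. That nucleus stands at 31.6% on chromosome 4 and 12.5% on chromosome 2, above all other 50 on both.

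Chromatin at gene starts was read over the 300 bases that run from 250 before to 50 after a start in RefSeq (GRCm38.p6). Starts of the pan-endothelial and lymphatic lists were nearly empty in cluster 4, those of the capillary and arterial lists were not, and adipocyte identity starts held the most fragments per start of the 22 lists. The table used here holds starts for 13 of the 25 pan-endothelial genes, 11 of the 14 lymphatic genes and 13 of the 18 adipocyte identity genes. Of the 4 markers of blood and lymphatic endothelium it holds Flt4 and Prox1, and the starts of Pecam1 and Cdh5 were not analysed here. Of 18 starts of pan-endothelial genes, 5 held any cluster 4 fragment, and together they held 9. Of 13 starts of lymphatic genes, 1 held any, and its 9 fragments all lay at Nrp2, a co-receptor for VEGF-C that is not limited to lymphatic vessels. All 18 starts of adipocyte identity genes held fragments, 300 in all. For comparison, 47.6% of the 32851 starts in the table held at least 1 cluster 4 fragment. Capillary starts held 44 cluster 4 fragments at 5 of 8 starts, 26 of them at Rgcc. Arterial starts held 45 at 6 of 8, 19 of them at Unc5b, a netrin receptor, and starts of endothelial transcription factors held 103 at 11 of 22, with 21 at Klf2. Per start and per 1000000 fragments of the same nuclei, these 3 lists stood at 6.34, 6.48 and 5.39 in cluster 4, close to the 5.56 of all starts, while the pan-endothelial and lymphatic lists stood at 0.576 and 0.797.

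The starts of 7 genes chosen by hand illustrate these counts, and their 250 bases before the start are printed from RefSeq on the gene's strand. For a gene with several starts, the start with the most cluster 4 fragments was printed, so its count is not independent of that choice. The median of the 18 adipocyte identity starts was 15 cluster 4 fragments. Capitals mark the motif CCAAT on either strand (ATTGG on the reverse), the CCAAT box of many promoters, which 33.8% of the 32851 starts hold within the same 250 bases. Cldn5 (chr16:18776597-18776846, + strand), Flt4 (chr11:49609429-49609678, + strand) and Prox1 (chr1:190170828-190171077, − strand) are endothelial genes. Adipoq (chr16:23146286-23146535, + strand), Cidec (chr6:113435761-113436010, − strand) and Plin4 (chr17:56109783-56110032, − strand) are adipocyte genes, and Ucp1 (chr8:83290098-83290347, + strand) is the heat-producing gene.
Cldn5: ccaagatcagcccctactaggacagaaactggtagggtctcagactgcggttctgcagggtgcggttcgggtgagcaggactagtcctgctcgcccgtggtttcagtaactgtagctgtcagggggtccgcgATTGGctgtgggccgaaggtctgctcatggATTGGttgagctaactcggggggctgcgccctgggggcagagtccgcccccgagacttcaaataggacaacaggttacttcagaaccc
Flt4: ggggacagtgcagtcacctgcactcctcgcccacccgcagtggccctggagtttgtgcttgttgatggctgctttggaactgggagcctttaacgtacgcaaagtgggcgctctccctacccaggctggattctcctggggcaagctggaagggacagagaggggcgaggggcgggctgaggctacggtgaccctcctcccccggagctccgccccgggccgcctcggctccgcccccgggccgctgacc
Prox1: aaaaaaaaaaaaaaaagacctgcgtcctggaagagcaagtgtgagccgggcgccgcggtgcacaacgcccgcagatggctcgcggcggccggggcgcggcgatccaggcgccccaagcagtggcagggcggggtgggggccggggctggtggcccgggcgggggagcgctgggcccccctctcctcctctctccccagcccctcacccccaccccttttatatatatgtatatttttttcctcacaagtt
Adipoq: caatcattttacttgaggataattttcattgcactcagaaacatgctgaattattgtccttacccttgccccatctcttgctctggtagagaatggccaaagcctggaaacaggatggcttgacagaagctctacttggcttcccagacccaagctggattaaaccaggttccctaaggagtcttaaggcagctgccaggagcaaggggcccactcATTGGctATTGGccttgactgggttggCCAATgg
Cidec: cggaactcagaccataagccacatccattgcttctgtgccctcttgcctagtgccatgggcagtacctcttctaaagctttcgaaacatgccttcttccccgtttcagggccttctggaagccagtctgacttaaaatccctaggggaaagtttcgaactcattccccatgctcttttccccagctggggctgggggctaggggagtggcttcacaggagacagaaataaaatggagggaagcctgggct
Plin4: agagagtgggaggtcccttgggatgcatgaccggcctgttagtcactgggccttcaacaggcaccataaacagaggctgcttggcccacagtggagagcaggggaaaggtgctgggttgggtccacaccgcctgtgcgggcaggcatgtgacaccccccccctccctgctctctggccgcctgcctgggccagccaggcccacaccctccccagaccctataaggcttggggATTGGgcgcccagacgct
Ucp1: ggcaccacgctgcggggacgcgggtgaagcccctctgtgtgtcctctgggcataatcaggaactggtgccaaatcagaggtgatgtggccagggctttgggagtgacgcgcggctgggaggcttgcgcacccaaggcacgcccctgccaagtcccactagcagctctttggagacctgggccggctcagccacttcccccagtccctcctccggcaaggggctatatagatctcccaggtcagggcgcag

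The motif occurred 2 times before Cldn5, 3 times before Adipoq and 1 time before Plin4, and 0 times before Flt4, Prox1, Cidec and Ucp1. Over the 300-base windows of these starts, cluster 4 gave 1 fragment at Cldn5, 0 at Flt4 and 0 at Prox1. The same nuclei gave 18 fragments at Adipoq, which encodes the hormone adiponectin. They gave 25 at this start of Cidec, a lipid droplet fusion protein, 7 at its second start (chr6:113434715-113435014), and 33 at Plin4, a droplet coat protein. Cluster 0 gave 1, 2 and 0 fragments at the 3 endothelial starts and 22, 34 and 39 at the 3 adipocyte starts. At the Ucp1 start cluster 4 gave 0 fragments and cluster 0 gave 2, whereas thyAD I cluster 1 gave 9.

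Summed over a list, pan-endothelial starts had 10.4 fragments per 1000000 fragments of the same nuclei (fpm) in cluster 4 (exact Poisson 95% interval 4.74 to 19.7), 16.6 in cluster 0 (10.4 to 25.2) and 7.13 in Immune nuclei (1.94 to 18.2). The 3 intervals overlap. Adipocyte identity starts had 346 fpm in cluster 4 (308 to 387), 370 in cluster 0 (338 to 404) and 312 in Immune nuclei (267 to 361). The thyAD I clusters stood higher, with 422 fpm in cluster 1 (385 to 462) and 526 in cluster 3 (466 to 592), and the interval of cluster 3 lay wholly above that of cluster 4. The intervals of cluster 4 and the Immune nuclei overlap here too. The level over all starts also differed, at 5.56 fpm per start in cluster 4 and 6.21 in cluster 0. It was 5.99 and 7.05 in thyAD I clusters 1 and 3 and 6.50 in Immune nuclei. The adipocyte sums were not scaled to that level. They therefore do not decide whether adipocyte starts set cluster 4 apart from thyAD I cluster 3 or the Immune nuclei. T cell starts separated the labels, with 4.61 fpm in cluster 4 (1.26 to 11.8) and 110 in Immune nuclei (84.7 to 142). These intervals cover counting error only.

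**Figure D2:**
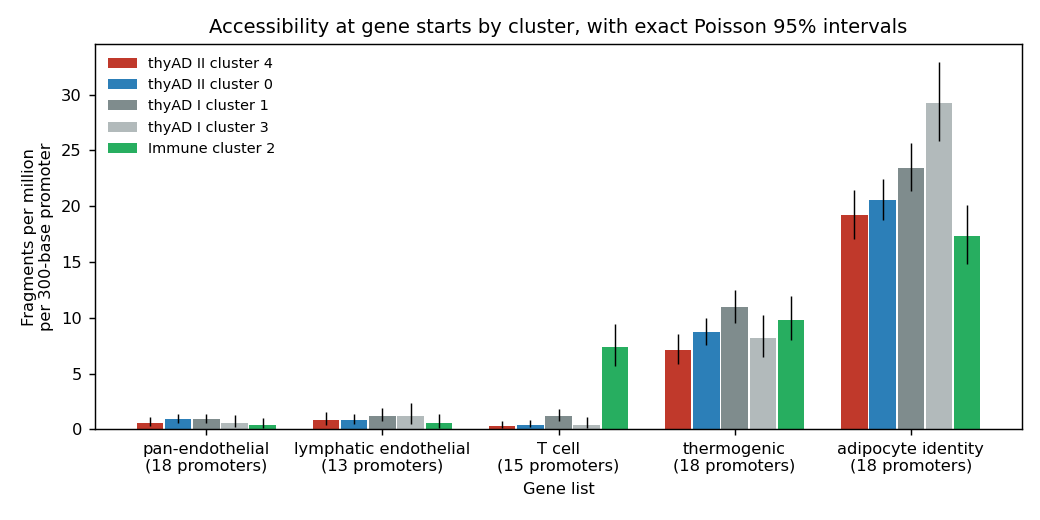
Fragments per 1000000 (fpm) per 300-base start (vertical axis) for 5 gene lists (horizontal axis) in the 5 clusters, as bars from 0 with exact Poisson 95% intervals. Of the lists drawn, pan-endothelial and lymphatic starts are low in all 5 clusters, adipocyte starts are the highest in all 5, and T cell starts are highest in the Immune nuclei.

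The 4 genes that mark blood and lymphatic endothelium were then read over the whole gene with 2 kb on either side. Pecam1 (chr11:106654213-106715281) gave 47 fragments in cluster 4, or 54.1 fpm. It stood at 53.0 in cluster 0, 52.5 and 26.8 in thyAD I clusters 1 and 3, and 85.5 in Immune nuclei. Prox1 (chr1:190118035-190170827) gave 14 fragments, 16.1 fpm, against 11.4 in cluster 0 and between 8.01 and 10.7 in the other clusters. Flt4 (chr11:49609679-49652739) gave 16, or 18.4 fpm, against 11.4 in cluster 0, 10.7 in thyAD I cluster 1, 19.1 in cluster 3 and 17.8 in Immune nuclei. Cdh5 (chr8:104101613-104144504) gave 8, or 9.22 fpm, against 4.54 in cluster 0 and 3.56 to 9.78 elsewhere.

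The log2 ratio of cluster 4 over cluster 0, with 0.5 fragment added to each sum, was 0.04 for Pecam1 with an exact binomial 95% interval of −0.53 to 0.59. It was 0.51 for Prox1 (−0.65 to 1.66), 0.70 for Flt4 (−0.41 to 1.82) and 0.99 for Cdh5 (−0.70 to 2.83). All 4 intervals included 0, and so did those over the other labels. None of the fragments of these 4 genes came from the nucleus rich in chromosome 4. At this depth no difference of these genes was detectable against cluster 0 or against the other labels summed.

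Counted by nucleus after thinning each to 5000 fragments, Pecam1 had a fragment in 17 of 51 nuclei of cluster 4 (33.3%, Clopper-Pearson interval 20.8 to 47.9). The share was 25.0% of 88 nuclei in cluster 0, 20.5% in thyAD I cluster 1, 8.93% in thyAD I cluster 3 (2.96 to 19.6) and 40.0% of 30 Immune nuclei, and leucocytes are known to use Pecam1 too. Thinned to 3000 fragments, the shares were 15.7% in cluster 4 and 16.9% in cluster 0, so the order of these 2 clusters depended on the thinning. The interval of thyAD I cluster 3 lay wholly below that of cluster 4 at 5000 fragments and overlapped it at 3000, where its share was 8.20% (2.72 to 18.1). Without thinning, 29 of the 51 nuclei had a Pecam1 fragment, and 38 had a fragment in at least 1 of the 4 genes. Flt4, Prox1 and Cdh5 each had a fragment in 3 of the 51 thinned nuclei, 5.88% (1.23 to 16.2). Immune nuclei, which should lack lymphatic chromatin, stood at 10.0% for Flt4 and 13.3% for Prox1. Cdh5 was in 0 of 30 Immune nuclei (upper bound 11.6%) and, at 3000 fragments, in 0 of 31 (upper bound 11.2%). Cluster 4 stood above that for Cdh5 at both depths, at 5.88% and 3.92%. Thinned to 3000 fragments, the order turned for Prox1, at 9.80% in cluster 4 and 6.45% in Immune nuclei, and stayed for Flt4, at 3.92% and 6.45%. Each depth was a separate random draw, and Prox1 in cluster 4 went from 3 nuclei at 5000 fragments to 5 at 3000. Changes of order between depths can therefore not be told apart from the noise of the draw. The intervals of cluster 4 and the Immune nuclei overlapped at both depths, so no difference from this background was detectable. Median depth was 17339 fragments per nucleus in cluster 4 and 16036 in Immune nuclei before thinning. Without thinning the counts in cluster 4 were 11, 12 and 6 nuclei for Flt4, Prox1 and Cdh5, or 21.6%, 23.5% and 11.8%, and the Immune shares were 22.6%, 16.1% and 6.45%. Of nuclei under 5000 fragments, 0 were left out of cluster 4, 1 of cluster 0, 2 and 5 of thyAD I clusters 1 and 3, and 1 of Immune.

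**Figure D3:**
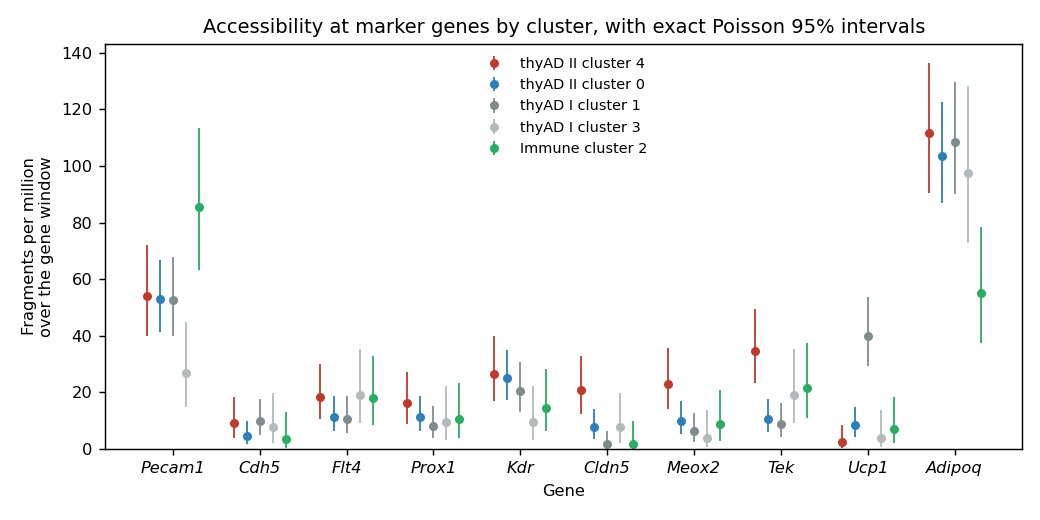
Fragments per 1000000 (fpm) over the gene with 2 kb on either side (vertical axis) for 10 genes (horizontal axis), 1 point per cluster with its exact Poisson 95% interval. Cluster 4 is above the other clusters at Cldn5 and Meox2 and near 0 at Ucp1; 15 of its 30 Tek fragments came from 1 nucleus.

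Among all genes with at least 20 fragments over both sides, 1.63% of 20283 were at least 2-fold higher than in cluster 0 and 1.77% at least 2-fold lower. Over the other labels the shares were 2.74% and 3.37% of 22269. By the interval, 2.95% of genes lay wholly above 0 over cluster 0 and 4.46% wholly below. Without uneven nuclei these were 2.92% and 4.02%. Of the 25 pan-endothelial genes, 17 reached 20 fragments and 3 were above: Tek, the angiopoietin receptor, Cldn5, and Tal1, a blood and vessel transcription factor. Tek gave 30 fragments in cluster 4 and 14 in cluster 0, a log2 ratio of 1.68 (0.75 to 2.74), but 15 of the 30 came from the nucleus rich in chromosome 4, where Tek lies. Without uneven nuclei it was 0.76 (−0.39 to 1.92). Tal1, also on chromosome 4, gave 19 fragments, 8 of them from that nucleus, and its ratio went from 1.14 to 0.43 (−0.88 to 1.70). Without uneven nuclei no pan-endothelial gene was above, and Egfl7, a vessel matrix protein, was below at −0.64 (−1.28 to −0.05). The median over the list was 0.06, beside −0.04 over all genes tested.

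The other pan-endothelial genes lay on both sides of cluster 0. Sox7, a transcription factor of early vessels, gave 14 fragments against 15, a log2 ratio of 0.51 (−0.65 to 1.66). Nos3, which makes nitric oxide in endothelium, gave 79 against 104, a ratio of 0.21 (−0.23 to 0.65), and was above the other labels at 0.50 (0.08 to 0.90). Fli1, an ETS factor of blood cells and endothelium, was below the other labels at −0.81 (−1.55 to −0.17), which became −0.54 (−1.29 to 0.13) without uneven nuclei. Egfl7 was below the other labels without uneven nuclei, at −0.66 (−1.27 to −0.11). Of 21 pan-endothelial genes tested over the other labels, 4 were above (Tek, Cldn5, Nos3 and Tal1) and 1 below. Over all genes the shares were 5.92% and 7.11%. Without uneven nuclei 2 of 20 were above and 1 below, where 5.04% and 6.87% of all genes were. The summed ratio was 0.08 (−0.07 to 0.23), and 0.04 (−0.12 to 0.19) without uneven nuclei. Ushbp1 gave 30 against 58 in cluster 0, a ratio of −0.33 (−1.03 to 0.31), and Egfl7 with all nuclei 37 against 82, a ratio of −0.53 (−1.14 to 0.03). The 8 genes under 20 fragments were Cdh5, Tie1, Sox17, Sox18, S1pr1, Emcn, Esam and Robo4, none with more than 10 fragments in cluster 4. Tie1, the partner receptor of Tek, had 10 against 4, of which 4 came from the nucleus rich in chromosome 4. Esam, an adhesion protein of endothelial junctions, had 4 against 13.

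Cldn5, which seals the junctions between endothelial cells, was higher in cluster 4 than in the other labels. It gave 18 fragments in cluster 4 and 10 in cluster 0, a log2 ratio of 1.42 (0.26 to 2.73). Over the other labels it gave 18 against 7, a ratio of 2.65 (1.38 to 4.21), where 5.92% of 22269 genes were above 0 and 7.11% below (5.04% and 6.87% without uneven nuclei). Without uneven nuclei the ratio was 2.51 (1.13 to 4.23) over the other labels and 1.23 over cluster 0, with a lower bound at 0. The fragments were spread, with at most 2 in a nucleus and at least 1 in 15 of the 51. After thinning to 5000 fragments, 15.7% of cluster 4 nuclei held one (7.02 to 28.6) and 3.41% of cluster 0 nuclei (0.71 to 9.64). Of 30 Immune nuclei 0 did, with an exact upper bound of 11.6%. The interval of cluster 4 overlapped those of cluster 0, thyAD I cluster 3 (0.44 to 12.3) and the Immune nuclei. That of thyAD I cluster 1 (0.03 to 6.53) lay below it. Thinned to 3000 fragments, the shares were 5.88% (1.23 to 16.2) in cluster 4, 1.12% in cluster 0 and 3.28% in thyAD I cluster 3. That of thyAD I cluster 1 was 1.18% (0.03 to 6.38). At this depth all of these intervals overlapped that of cluster 4, so the separation from thyAD I cluster 1 was not kept. The start itself held 1 of the 18 fragments.

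Meox2, a transcription factor of capillaries in fat and muscle, was higher in summed fragments. It gave 20 fragments in cluster 4 and 13 in cluster 0, a log2 ratio of 1.21 (0.15 to 2.36), and 1.85 (0.80 to 2.96) over the other labels. None came from the nucleus rich in chromosome 4, and without uneven nuclei the ratios were 1.27 (0.21 to 2.41) and 1.97 (0.89 to 3.16). Counted by nucleus, the order depended on the thinning. At 5000 fragments 9.80% of cluster 4 nuclei held a Meox2 fragment (3.26 to 21.4), beside 4.55% in cluster 0 and 10.0% of Immune nuclei, and at 3000 fragments 1.96% did (0.05 to 10.4), beside 3.37% in cluster 0. Its own start held 1 fragment. Gpihbp1, which carries lipoprotein lipase across the capillary wall, gave 1 fragment in cluster 4 and 3 in cluster 0. Cd300lg gave 31 against 75 in cluster 0, a ratio of −0.65 (−1.32 to −0.05), which became −0.60 (−1.26 to 0.01) without uneven nuclei. Kdr was at 0.09 (−0.75 to 0.90) and Flt1, a VEGF receptor, at 0.07 (−0.58 to 0.69). Of 9 capillary genes tested over cluster 0, Meox2 was above and Cd300lg below, where 2.95% of all genes were above and 4.46% below.

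Of 14 lymphatic genes, 11 were tested over cluster 0, and 8 of them had ratios above 0 (9 without uneven nuclei), with a median of 0.34 beside −0.04 over all genes tested. Against the other labels 9 of 12 were above 0, with a median of 0.43 beside 0.002 over all genes, while the summed ratio was −0.05 (−0.22 to 0.11). These medians depended on the processing. Over cluster 0 the median was 0.013 with fragments under 150 bp, −0.045 with a minimum of 100 fragments and 0.57 in windows around the gene ends, and over the other labels the same settings gave −0.38, 0.075 and −0.12. By the interval 1 of the 11 was above cluster 0 and 1 below, where 2.95% and 4.46% of all genes were. Angpt2, a Tek ligand of lymphatic and sprouting vessels, was above, with 40 fragments against 32, a log2 ratio of 0.92 (0.22 to 1.65). Tbx1 was below, with 6 against 24 and a ratio of −1.31 (−2.97 to −0.07). Lyve1, the hyaluronan receptor of lymphatic vessels, gave 13 against 10, a ratio of 0.97 (−0.32 to 2.33). Foxc2, a factor of lymphatic valves, was at 0.43 (−0.47 to 1.31) and Nrp2 at −0.13 (−0.46 to 0.19). Ccl21a, the chemokine of lymphatic vessels, and Klhl4 gave 0 fragments in cluster 4, and Ccl21a gave 0 in all clusters. By the interval 0 of the 12 were above the other labels, and Itga9, an integrin of lymphatic valves, was below at −0.43 (−0.80 to −0.08). Of all genes, 5.92% were above the other labels and 7.11% below, so 1 of 12 is near the background. Without uneven nuclei Nrp2 was below too, at −0.34 (−0.65 to −0.05), where 6.87% of all genes were below.

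The arterial and venous sums were close to cluster 0, at log2 ratios of 0.03 (−0.18 to 0.24) and −0.01 (−0.28 to 0.25). Of 6 arterial genes tested, 0 had an interval off 0, and Dll4, a Notch ligand of arteries, stood at 0.79 (−0.33 to 1.94). Of 5 venous genes, Selp, the P-selectin that receives T cell precursors in the thymus, was below with 7 fragments against 27, a ratio of −1.27 (−2.78 to −0.11). Vcam1, also an adhesion gene, was level with cluster 0 at −0.13 and above the other labels at 1.35 (0.25 to 2.44). Of 12 thymic vessel and egress genes tested over cluster 0, Selp alone had an interval off 0, where 4.46% of all genes were below and 2.95% above, so 1 of 12 is near the background.

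In the VEGF and angiopoietin pathway, the ligand Vegfd, which acts on Flt4, was higher. It gave 39 fragments in cluster 4, 44.9 fpm, against 25 in cluster 0, 18.9 fpm, a log2 ratio of 1.24 (0.49 to 2.03). The value over the other labels was 0.83 (0.20 to 1.44), and without uneven nuclei the 2 ratios were 1.22 and 0.77. Vegfa, the main ligand of Kdr, was lower, with 114 fragments against 232 and a ratio of −0.42 (−0.76 to −0.09). Of 16 pathway genes tested over cluster 0, Vegfd, Angpt2 and Tek were above and Vegfa below, where 2.95% of all genes were above and 4.46% below. Without uneven nuclei Tek was no longer above, where 2.92% and 4.02% of all genes were above and below. In the Notch pathway, the target Heyl was above at 0.66 (0.08 to 1.24) and the target Hes1 below at −1.14 (−2.30 to −0.18), and the intervals of the 17 other members included 0.

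Summed over each list, cluster 4 stood at 97.9 fpm at the 4 marker genes and cluster 0 at 80.2, a log2 ratio of 0.29 (−0.14 to 0.71). The pan-endothelial sum was 590 against 557, a ratio of 0.08 (−0.08 to 0.25), and Immune nuclei stood at 618. The lymphatic sum was at 0.11 (−0.08 to 0.30) and the capillary sum at −0.05 (−0.23 to 0.13). Against the other labels the capillary sum was at 0.18 (0.01 to 0.35) and the arterial sum at 0.23 (0.03 to 0.42), and without uneven nuclei both intervals included 0, at 0.15 (−0.02 to 0.32) and 0.14 (−0.06 to 0.34). Of the uneven nuclei, 11 were of the other labels. With only the nucleus rich in chromosome 4 left out, both sums stayed above 0, at 0.20 (0.03 to 0.36) and 0.21 (0.01 to 0.40). In windows of 1 kb around both gene ends the capillary sum turned to −0.12 and the arterial sum was 0.024. Of the 22 lists, the lipid handling list of endothelium alone had a summed interval off 0 over cluster 0, at −0.17 (−0.31 to −0.04), with Cav1, the coat protein of caveolae that fat cells also hold in abundance, at 97 fragments against 234. Every nucleus of the 51 had at least 1 fragment in the pan-endothelial list, as did all 89 of cluster 0 and all 31 Immune nuclei, whose medians were 5.08 and 5.86 per 10000 fragments. In cluster 4 the lowest had 1.14 per 10000 fragments, the median 5.25 and the highest 14.7, which was the nucleus rich in chromosome 4. The next had 12.6.

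**Figure D4:**
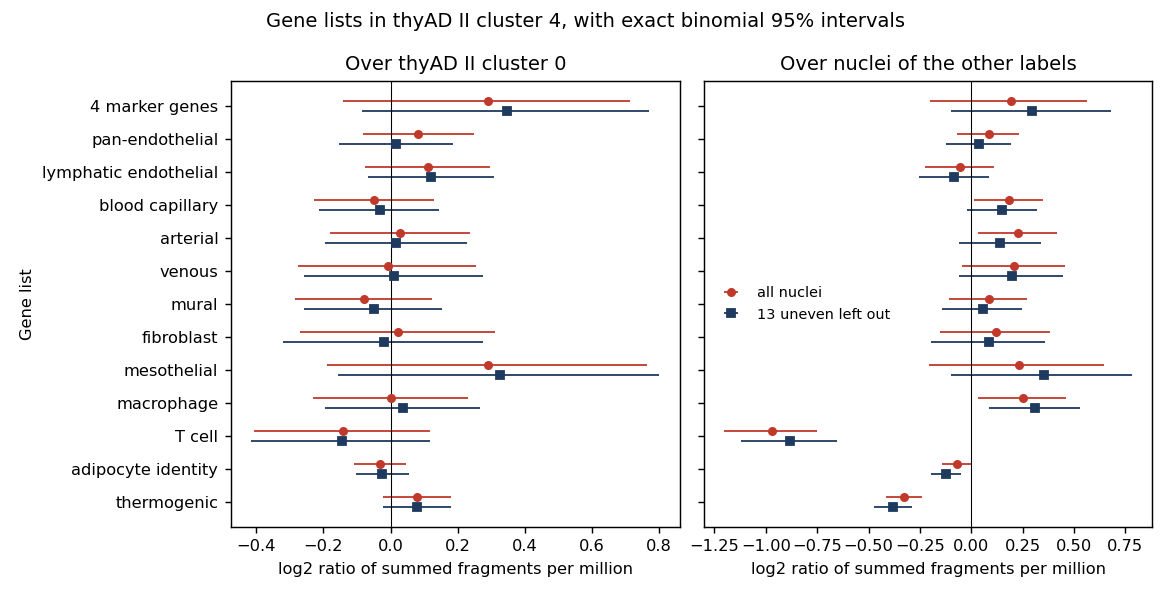
Log2 ratio of fpm summed over each gene list (horizontal axis) in cluster 4 over cluster 0 (left) and over the other labels (right), with exact binomial 95% intervals, for all nuclei (red circles) and without the 13 uneven nuclei (blue squares). Over cluster 0 all 13 lists drawn have intervals that include 0. The endothelial lipid handling list, at −0.17 (−0.31 to −0.04) over cluster 0 with all nuclei, is not drawn. Over the other labels the T cell and thermogenic lists lie below 0 in both counts.

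Adipocyte chromatin was close to that of cluster 0. The 18 adipocyte identity genes gave 2508 fpm in cluster 4 and 2563 in cluster 0, a log2 ratio of −0.03 (−0.11 to 0.05). Against the other labels it was −0.07 (−0.14 to 0.00), and without uneven nuclei it fell below 0, at −0.13 (−0.20 to −0.05). With only the nucleus rich in chromosome 4 left out it was −0.06 (−0.13 to 0.01). The 18 genes gave 2736 and 3309 in thyAD I clusters 1 and 3 and 1788 in Immune nuclei. Each of the 51 nuclei had fragments there, between 15.0 and 42.9 per 10000. Pck1, the glyceroneogenesis enzyme, was above cluster 0 at 0.52 (0.18 to 0.86) and Dgat2, which completes triglyceride synthesis, below at −0.42 (−0.75 to −0.11). By the interval these were 1 above and 1 below of the 18 genes, where 2.95% of all genes were above and 4.46% below. Pparg gave 176 fragments against 313, a ratio of −0.22 (−0.50 to 0.05), and after thinning to 5000 fragments 64.7% of cluster 4 nuclei had a Pparg fragment (50.1 to 77.6). The share was 73.9% in cluster 0, 72.3% and 66.1% in thyAD I clusters 1 and 3, and 43.3% in Immune nuclei (25.5 to 62.6), and the intervals of cluster 4 and the Immune nuclei overlapped. Cebpa, a partner of Pparg, was below the other labels at −0.48 (−0.86 to −0.12). It gave 92.2 fpm in cluster 4, 127 and 191 in thyAD I clusters 1 and 3, and 74.8 in Immune nuclei. By the interval 2 of the 18 genes, Cebpa and Pnpla2, were below the other labels and 0 above. Of all genes, 7.11% were below and 5.92% above.

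Thermogenic genes were lower in cluster 4 than in the other labels together, and their sum was close to that of cluster 0. The list gave 1565 fpm in cluster 4 and 1482 in cluster 0, against 2479 and 1661 in thyAD I clusters 1 and 3 and 1220 in Immune nuclei. Against the other labels 2 of 18 genes tested had ratios above 0. By the interval 8 of the 18 were below and 0 above, where 7.11% of all genes were below and 5.92% above. The list had a median of −0.43, beside 0.002 over all genes, and a summed ratio of −0.33 (−0.42 to −0.24). Without uneven nuclei 10 genes had an interval below 0, where 6.87% of all genes had, and the summed ratio was −0.38. Ucp1 gave 2 fragments in cluster 4, 11 in cluster 0, 45 in thyAD I cluster 1, 2 in cluster 3 and 4 in Immune nuclei, a ratio of −3.02 over the other labels (−6.41 to −1.40). Of the 51 fragments in the other labels, thyAD I cluster 1 held 45. Prdm16, a regulator of brown fat fate, was at −0.44 (−0.70 to −0.19), with 191 fpm against 348 in thyAD I cluster 1. Over cluster 0, Cox7a1 and Letmd1, both of mitochondria, were below at −1.51 (−3.66 to −0.05) and −0.83 (−1.55 to −0.18). Without uneven nuclei the interval of Cox7a1 reached 0.00.

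T cell genes were low in cluster 4 as in the other fat-labelled clusters. The list gave 225 fpm in cluster 4, 248 in cluster 0, 296 and 212 in thyAD I clusters 1 and 3, and 944 in Immune nuclei. Against the other labels 11 of 14 genes were below, where 7.11% of all genes were, and the summed ratio was −0.97 (−1.20 to −0.75). Without uneven nuclei 10 of 13 were below, where 6.87% of all genes were, and Cd2 was above, where 5.04% were. Cd2 was above cluster 0 at 0.87 (0.05 to 1.72), with 29 fragments against 24, where 2.95% of all genes were above. It was the 1 T cell gene of 7 tested with a ratio above 0. The list had a median of −0.23 over cluster 0 and a summed ratio of −0.14 (−0.41 to 0.12). Among the macrophage genes Csf1r, the CSF1 receptor, was above cluster 0 with 20 against 9, a ratio of 1.72 (0.56 to 3.08), whereas the macrophage sum was at 0.00 (−0.23 to 0.23). Csf1r stood at 23.0 fpm in cluster 4, 6.81 in cluster 0, 15.1 and 15.3 in thyAD I clusters 1 and 3, and 19.6 in Immune nuclei. Over the other labels its ratio was 0.51 (−0.37 to 1.33). Mural, fibroblast, mesothelial, thymic epithelial, B cell, Schwann and erythroid sums all had intervals including 0 over cluster 0. Relative to the other labels Myh11 of smooth muscle was above at 0.93 (0.40 to 1.44), Wt1 of mesothelium at 1.14 (0.30 to 1.96), and Trp63 of thymic epithelium at 0.50 (0.15 to 0.83). Over cluster 0 the same genes stood at 0.03, 0.21 and −0.03. Myh11 was the 1 mural gene of 10 with an interval above the other labels, where 5.92% of all genes were above. Of the 10, 4 had ratios above 0, and the mural sum was 0.08 (−0.11 to 0.27). The macrophage sum was above the other labels at 0.25 (0.03 to 0.46), and at 0.31 (0.08 to 0.53) without uneven nuclei. Mertk, a receptor for the uptake of dying cells, was the 1 macrophage gene of 7 with an interval above 0, beside the same 5.92% of all genes. Of the 7, 3 had ratios above 0, and the median was −0.11. The thymic epithelial sum was above them at 0.30 (0.06 to 0.53), and at 0.26 (0.01 to 0.50) without uneven nuclei, but −0.014 in windows of 1 kb around both gene ends.

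Across all genes, few differed between cluster 4 and cluster 0. Of 20283 genes tested, 220 (1.08%) were at least 2-fold higher with an interval above 0, and 233 (1.15%) at least 2-fold lower with an interval below 0. Of the 220, 59 (26.8%) lay on chromosome 4, which holds 6.33% of the genes tested. Without uneven nuclei 182 genes (0.901%) were higher, and 15 of those (8.24%) lay on chromosome 4. The median over the 1284 tested genes of chromosome 4 was 0.03.

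The ranking of genes higher in cluster 4 rested on that nucleus. Of the 15 genes with the highest lower bound over cluster 0, 14 lay on chromosome 4, and 1 of the 15 was shared with the ranking without uneven nuclei, which held 0 from chromosome 4. Agbl4 came first, with 297 fragments in cluster 4 against 118, a log2 ratio of 1.93 (1.63 to 2.26). Of the 297, 192 came from the 1 nucleus. Dab1 gave 329 fragments, 222 of them from that nucleus, and Nkain3 gave 124, of which it held 96. Ranked over the other labels, 10 of the first 15 lay on chromosome 4, and 3 of the 15 stayed in the ranking without uneven nuclei. Of the 10 lower genes ranked first, 6 over cluster 0 and 7 over the other labels stayed.

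**Figure D5:**
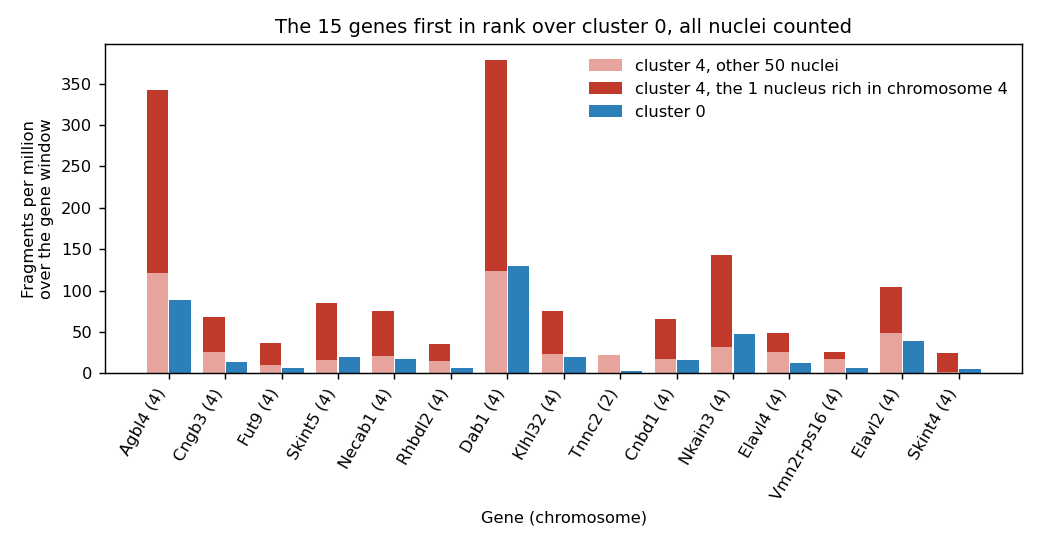
Fragments per 1000000 (fpm) over the gene window (vertical axis) for the 15 genes ranked first over cluster 0 when all nuclei are counted (horizontal axis, chromosome in brackets): cluster 4 as red bars stacked by source, cluster 0 as blue bars. In Agbl4, Dab1 and Nkain3 the 1 nucleus gives 192 of 297, 222 of 329 and 96 of 124 cluster 4 fragments, and Tnnc2 on chromosome 2 is the gene with none from it.

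Without uneven nuclei the leading genes were few in fragments. Tnnc2, a troponin of fast muscle, led with 19 against 4, a log2 ratio of 2.78 (1.32 to 4.93). Parvg, an adaptor of integrin signalling in blood cells, followed with 39 against 18, a ratio of 1.76 (0.94 to 2.67). With all nuclei counted, 1 of its starts held 12 fragments in cluster 4 and 2 in cluster 0. The same start held 12 in thyAD I cluster 1, 3 in thyAD I cluster 3 and 2 in Immune nuclei, so it was not particular to cluster 4. Hopx, a homeodomain cofactor, gave 41 against 23 (1.48, 0.73 to 2.30). The next included Agxt, Slc22a13, Fzd6, Csf1r, Bpifa6, Hsd17b13, Vegfd, Oacyl, Arhgap6, Alox5 and Spata3, with ratios from 0.94 to 2.01. Of the genes named here, Vegfd alone belongs to a vessel list, that of the VEGF pathway. Over the other labels the intervals of Csf1r and Arhgap6 included 0, at 0.57 (−0.35 to 1.42) and 0.33 (−0.08 to 0.72). Those of Agxt, Bpifa6, Hsd17b13 and Alox5 lay above 0 there too. The lowest upper bounds belonged to Prkag3, Onecut2 and B9d2, and B9d2, of the ciliary base, gave 22 against 94 (−1.41, −2.17 to −0.75). Ret, the GDNF receptor, gave 21 against 80 (−1.24, −2.03 to −0.56), and Inpp4b, a phosphoinositide phosphatase, 48 against 158.

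Set against the other labels, the leading genes without uneven nuclei were Cldn5, Hsd17b13, Agt, Gdap1l1, Meox2, Wnt3a, Zic4, Tmem204, Otx2os1, Tmem176b, Wt1, Chrd, Cpne8, Tbx5 and Alox5. Agt, the angiotensin precursor that fat cells secrete, gave 33 fragments against 23, a ratio of 1.77 (0.97 to 2.61). Not all of these genes differed from cluster 0, which carries the same label. Over cluster 0 the intervals of Agt, Chrd and Cpne8 included 0, at 0.71 (−0.04 to 1.46), 0.57 (−0.03 to 1.18) and 0.22 (−0.18 to 0.61). Hsd17b13 and Alox5 lay above cluster 0 too, at 1.33 (0.49 to 2.22) and 1.19 (0.45 to 1.96), as did Meox2. Wt1 gave 24 against 17 and Tbx5, a factor of heart and forelimb mesoderm, 33 against 27 (1.54, 0.77 to 2.34). At the other end stood Mir142b, Trbj2-6, Ucp1, Hook1 and Ednrb. Trbj2-6, a joining segment of the T cell receptor beta locus, gave 0 fragments in cluster 4 and 35 elsewhere when all nuclei were counted. The upper bound of its log2 ratio was −1.82. Mir142b, in the locus of a blood cell microRNA, gave 0 against 33, with an upper bound of −1.73. Both are short features whose windows overlap those of neighbouring genes.

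Bins of 1 kb were ranked by the lower bound of their ratio. Of 8559 bins with at least 15 cluster 4 fragments, 455 (5.32%) had an interval above 0 over all other 266 nuclei, 425 (4.97%) below, and 301 (3.52%) were at least 2-fold higher with an interval above 0. Bins entered by their cluster 4 fragments alone, so nothing is read from these shares, and the bins below are a description. The first lay within Ephb2, an ephrin receptor, at chr4:136731001-136732000, with 18 fragments in cluster 4, 7 in cluster 0 and 5 in the rest, a log2 ratio of 2.59. Of the 18, 1 came from the nucleus rich in chromosome 4, and the bin stayed first without uneven nuclei. The next, at chr12:15643001-15644000, lay 147725 bp from Trib2, with 15 fragments against 1 in cluster 0. It gave 3 and 4 in thyAD I clusters 1 and 3 and 2 in Immune nuclei. The third lay within Lpin3, a phosphatidate phosphatase of lipid synthesis, at chr2:160882001-160883000, with 17 against 2 in cluster 0. That bin gave 2 in thyAD I cluster 1, 7 in thyAD I cluster 3 and 2 in Immune nuclei. In all, thyAD I cluster 3 held 522549 fragments against 868105 in cluster 4. The first 3 were the same without uneven nuclei, and none of the first 10 overlapped a start in the table. Bins of 500 bp ranked otherwise: the bin near Trib2 came first, those in Ephb2 and Lpin3 were not among the first 12, and 2 of the first 10, at Ppt2 and Llph, overlapped a start. The genes nearest to the first 10 bins of 1 kb were Ephb2, Trib2, Lpin3, Glp2r, Trappc8, Asic2, Cdc42, Zfp469, Zfp608 and Ttc7b.

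RNA of another thymic library shows the same genes as transcripts. It came from the pooled thymi of 6 naive male mice aged 4 months, so sex, age and pool differ. Its labels were Ad I and Ad IIa, and no source used here states whether Ad IIa names the same nuclei as thyAD II. Ad IIa nuclei held Pecam1 at 986 molecules per 1000000 nuclear molecules (exact Poisson 95% interval 892 to 1089), Cdh5 at 805 and Kdr at 1104. The same nuclei held Cldn5 at 142 and Meox2 at 229, while Ad I held 0 and 1 molecules of them among 52241. Ad I held Pecam1 at 172 (78.8 to 327), Cdh5 at 76.6 and Kdr at 115, from 9, 4 and 6 molecules. Unlabelled barcodes held Pecam1 at 259 and Cdh5 at 93.2. Flt4 was at 37.4 from 15 molecules in Ad IIa, and Prox1, Lyve1 and Mmrn1 gave 0 of 401448, with an exact Poisson upper bound of 9.19 per 1000000. Vegfd also gave 0 molecules in both labels. In cluster 4, Pecam1 and Cdh5 chromatin stood within counting error of cluster 0. Cluster 0 carries the same label, so that contrast is unlike the one of Ad IIa with Ad I. Among the thyAD I clusters, Pecam1 chromatin was near the level of cluster 4 in cluster 1 and lower in cluster 3. Cdh5 chromatin stood at 9.8 and 7.7 fpm there, against 9.2 in cluster 4. The 2 libraries were not compared by a test.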

How the data were processed

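The members and the gene lists were chosen with earlier results of these data known. Fragments of 1 thymic multiome library came from cellranger-arc 2.0.2 with a GRCm38 (mm10) reference, per the file headers, and each deposited row is 1 fragment with its read count. The authors deposited per nucleus a count of UMIs, the percent of mitochondrial UMIs, a score for start enrichment, a ratio for nucleosome signal, the fraction weight of each assay, a cluster and a label. The copy of that table used here ends inside row 318, so 317 complete rows (4397902 of 101060606 fragments, 4.35%) were used. The RNA matrix of 4-month thymi holds deposited UMI counts; per the file headers, cellranger 7.2.0 wrote it.

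Fragments overlapping a gene with 2 kb on either side were counted for 49943 RefSeq genes, and all 234 genes of 22 lists were matched. Sums were scaled per 1000000 fragments of the same nuclei. Log2 ratios used a pseudocount of 0.5 and genes with at least 20 fragments over both sides. Intervals were exact binomial (ratios and shares) or exact Poisson (levels) at 95% and cover counting error only. The ratio intervals were tried on simulated independent Poisson counts, the model they assume. That trial left out the clumping of fragments by nucleus, so it does not show how well the intervals hold for these data. Nuclei were thinned to 5000 fragments, or to 3000 as an alternative, for shares of nuclei. Each depth was a separate random draw made once, and the intervals do not cover the spread between draws. Nuclei are not replicates, and with 1 library no test was made. The rule for named genes took the 4 markers, the 4 highest and 2 lowest of the pan-endothelial and lymphatic lists, the 2 highest and 2 lowest of other lists, the 15 genes with the highest lower bound and the 10 with the lowest upper bound per comparison, and those nearest the first 10 bins. Predicted genes were left out, 1 ranked gene is not reported here, and of overlapping windows the first ranked was kept. List members outside the rule were named after their values were seen. Sequences and starts came from RefSeq tables. Exons and introns were not used here. Python 3.11.15 with numpy 2.4.6, scipy 1.17.1 and pandas 2.3.3 was used. No doublet caller was run here. Alternatives were cut sites, other windows, scalings, lengths, pseudocounts, minimums and nuclei.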

Additional observations from a re-analysis of the deposited data

How the results depend on the processing

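No paired analysis was possible because there was 1 library, and no replicate could be left out. Depth limits single genes: most endothelial genes had under 50 fragments in cluster 4. Leaving out the 13 uneven nuclei or the 1 nucleus rich in chromosome 4 was chosen after seeing the data. The counts of genes 2-fold higher and lower over cluster 0 were 330 and 359, and over the other labels 611 and 751. With cut sites they were 867 and 968, and 1222 and 1582. With no minimum they were 5661 and 3636, and 12048 and 3949. With a minimum of 100 fragments, which tests fewer genes, they were 12 and 10, and 31 and 66. With a pseudocount of 5 the lower counts were 48 and 120. With windows of 1 kb around both gene ends, 186 genes were higher over cluster 0 and 497 lower over the other labels. In those windows the summed ratio was −0.10 for thermogenic genes over cluster 0. Over the other labels it was 0.34 for pan-endothelial (whose median turned to −0.43, and to −0.24 over cluster 0), −0.12 for capillary (turned from 0.18), −0.44 for thermogenic, −1.34 for T cell and −0.014 for thymic epithelial genes (turned), whose median became −0.12, and the arterial median −0.14. Median-of-ratios scaling shifted all genes by 0.10 over the other labels, to 0.032 for adipocyte identity and −0.23 for thermogenic sums; equal weight per nucleus gave −0.17 for adipocyte identity. Fragments under 150 bp gave −0.35 for the lymphatic sum over the other labels and −0.20 for the thymic epithelial median. The macrophage median over the other labels, −0.11, turned to 0.12 (gene ends), 0.47 (short fragments), 0.17 (pseudocount 5), 0.33 (minimum 100), 0.18 (equal weight) and 0.24 (without uneven nuclei). The endothelial lipid handling median over cluster 0, −0.02, turned to 0.049 (median-of-ratios), 0.0024 (pseudocount 5), 0.037 (equal weight), 0.022 (without uneven nuclei) and 0.018 (without the 1 nucleus). The cause of each change was not tested.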
